A study of Caenorhabditis elegans with 4 samples.

Results

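The 10 genes described here encode the core of TGF-beta signalling in C. elegans. They are the ligand genes dbl-1 and daf-7, the glypican gene lon-2, the receptor genes daf-4, sma-6 and daf-1, the Smad genes sma-2, sma-3 and sma-4, and the zinc-finger gene sma-9. They were listed by name for their place in the pathway, and every array probe of each gene was taken. All 10 were on the array, among 20482 genes with a named probe, and they had 25 probes in all. Of these, dbl-1 had 2, daf-4 had 5, sma-4 had 4, sma-9 had 8 and each of the other 6 genes had 1.

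RNA came from whole N2 worms, the wild-type strain, kept at 20 °C and taken on day 7 to 8 of adulthood. Maximum velocity (MV) is the highest speed of a worm during a short recording on a plate without food. Worms under 0.22 mm/sec formed the low MV group and the others the high MV group, with 2 single-colour Cy3 arrays for each. The question was which genes differ in expression between slow and fast worms of the same age. The labels do not say whether the 2 samples of a group came from separate cultures, so p-values measure only the spread between these samples, which may be technical. The low MV samples shared 1 slide and the high MV samples another, each with its own scan, so slide, scan and MV group cannot be told apart.

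TGF-beta ligands are secreted dimers that bring a type II and a type I receptor together on a receiving cell. The type I receptor then phosphorylates a receptor-regulated Smad, which enters the nucleus with a co-Smad and changes transcription. C. elegans uses 2 main branches that share the type II receptor DAF-4. In the Sma/Mab branch, DBL-1 from neurons acts on the hypodermis through SMA-6 to set body size and male tail pattern. In the dauer branch, DAF-7 from the ASI sensory neurons acts through DAF-1, and in larvae it keeps animals from entering the dauer stage. In adults the branches have also been tied to reproductive ageing, innate immunity and fat storage.

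Values are log2 intensities after background subtraction and quantile normalization between the 4 arrays, and a difference is low MV minus high MV on that scale. A gene was tested where its probe was present, that is above an array-specific cutoff of 6.65 to 6.67, on both arrays of at least 1 group. A gene with more than 1 present probe was read from the brightest. A gene was called where limma gave an adjusted p under 0.05 over all 12883 genes tested and the absolute difference was over 0.58, a 1.5-fold change. Levels of different genes are read by different probes and are not compared.

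Of 43803 spots that were not controls, 84.6% to 87.7% per array stood well above background, with no saturation. Within a group, the median gene had an SD of 0.07 in low MV and 0.10 in high MV. Many genes differed: 21.8% of all genes tested were called higher in low MV worms and 17% were called lower. Of the 10 TGF-beta genes, 3 were called higher (daf-7, dbl-1 and sma-9) and 0 lower. With 10 genes, 3 is near the count that the 21.8% of all genes would give, and the genes as a group are not set apart by it. Within the 10, the called genes were both ligands and 1 nuclear factor, and no receptor or Smad gene reached a 1.5-fold change on its brightest probe. Outside the 10 this split did not hold. The Smad genes daf-8, daf-14 and daf-3 were called higher, by 0.66, 0.71 and 0.84. Among other ligand genes unc-129 was called higher, at 1.59, and tig-2 and tig-3 were not called. All 10 genes were tested, 9 of them with a probe present in both groups, and daf-7 was present in low MV worms only.

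The plot of array values by gene shows this pattern.

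**Figure D1:**
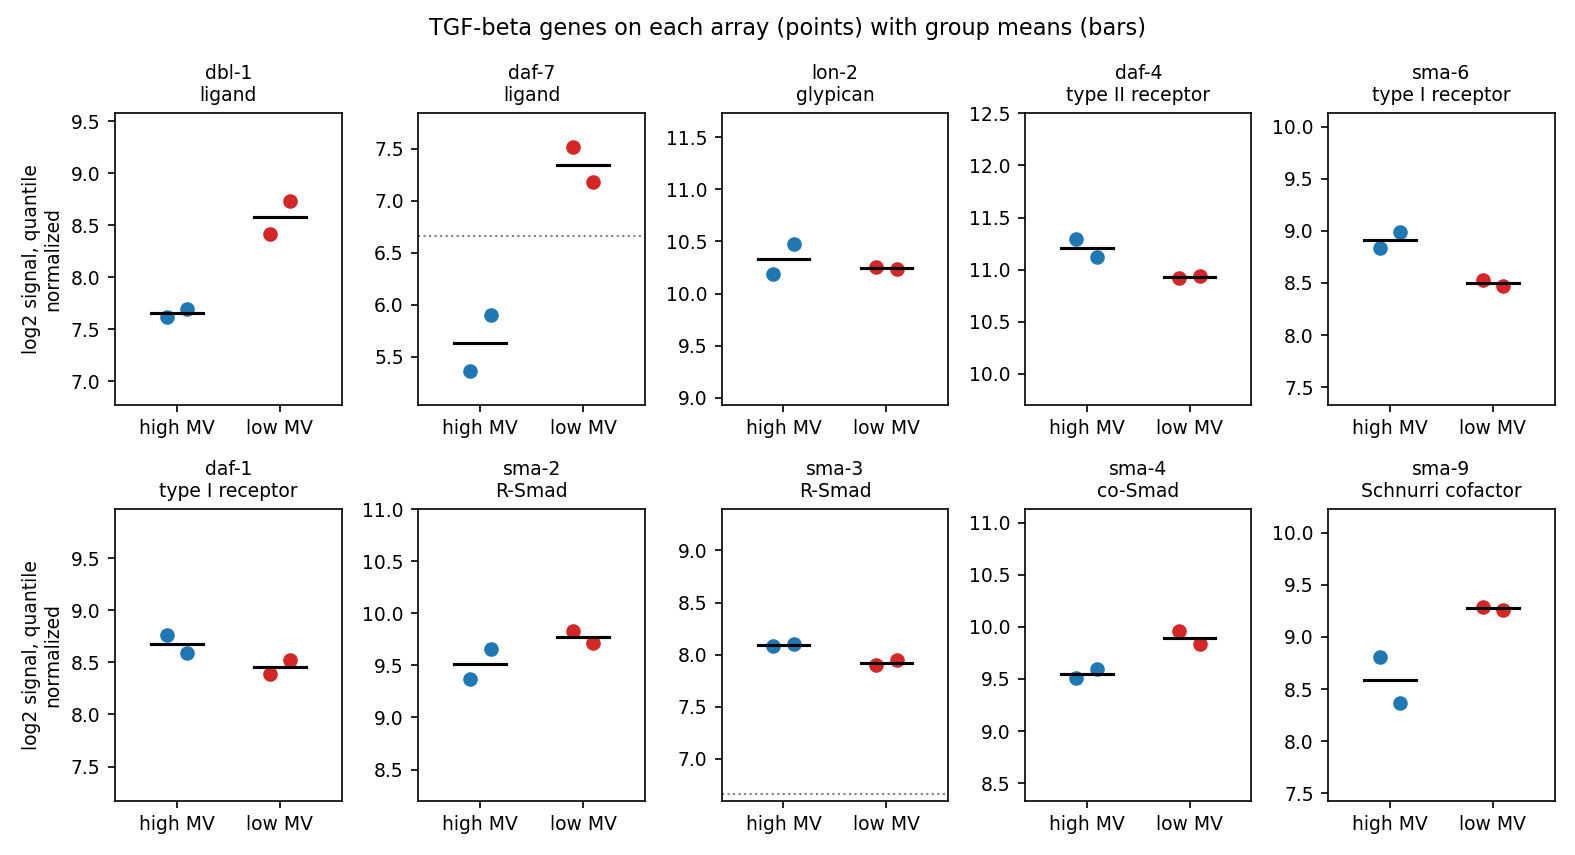
Normalized log2 intensity (vertical axis) of the 10 TGF-beta genes on the 2 low MV and 2 high MV arrays, 1 point per array and 1 probe per gene, with bars for the group means and an axis for each gene; the dotted line, where in range, is the mean presence cutoff. The low MV points of dbl-1, daf-7 and sma-9 lie above their high MV points by 0.92, 1.71 and 0.69, and the points of lon-2 overlap.

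With quantile normalization, daf-7, which encodes the ligand of the dauer branch, had a higher level in low MV worms. Its normalized level was 7.52 and 7.18 in the 2 low MV samples and 5.37 and 5.90 in the 2 high MV samples. The groups did not overlap, and both high MV values lay below the presence cutoff, although the probe was well above local background on all 4 arrays. Before normalization the intensities were 207.8 and 141.6 in low MV and 32.9 and 62.6 in high MV. The difference was 1.71 ± 0.22 (SE, n = 2 per group), a 3.28-fold higher level, with a 95% interval of 1.16 to 2.26 and an adjusted p = 0.00252 by limma. A gene present in 1 group only must differ to enter the test. When all probes were tested with no filter on dim ones, the call held with an adjusted p = 0.0150. The difference stayed between 1.45 and 1.98 when any 1 array was left out. With normexp background correction it was 0.37, no longer called and no larger than that of dbl-1.

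The gene dbl-1, for the BMP-like ligand that promotes body growth, was measured by 2 probes, both of which were higher in low MV worms. The brighter one read 8.41 and 8.74 in low MV and 7.62 and 7.70 in high MV, so that the lowest low MV sample was still above both high MV samples. The difference was 0.92 ± 0.14 (SE, n = 2 per group), 1.89-fold, with a 95% interval of 0.57 to 1.26 and an adjusted p = 0.00391 by limma. The other probe differed by 1.01. Leaving out 1 array gave 0.76 to 1.08. The call was lost with normexp, at 0.39, and with spike-in scaling, at 0.79 and an adjusted p = 0.0962.

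The gene lon-2, for a cell-surface glypican that binds DBL-1 and restrains its signal, was the only one of the 10 whose groups overlapped. Its level was 10.26 and 10.23 in low MV and 10.19 and 10.47 in high MV. The difference was -0.09, with a 95% interval of -0.41 to 0.23 and an adjusted p = 0.574. It turned to 0.05 without high MV replicate 2. The interval leaves room for a change of either sign smaller than the 1.5-fold limit.

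The receptor genes read lower in low MV worms by small amounts, except that daf-1 was level with 75th percentile scaling. The level of sma-6, for the type I receptor of the Sma/Mab branch, was at 8.52 and 8.47 in low MV and 8.84 and 8.99 in high MV. The groups did not overlap. The difference of -0.42 ± 0.10 (SE, n = 2 per group) passed the adjusted p, at 0.0187 by limma, but fell short of 1.5-fold. It also passed with no filter on dim probes, at 0.0476. It did not pass with 75th percentile scaling (-0.21, 0.146), the deposited log2 table (-0.24, 0.0881), normexp (-0.14, 0.116) or spike-in scaling (-0.58, 0.230). Leaving out 1 array gave -0.50 to -0.34. The level of daf-1, for the type I receptor of the dauer branch, was at 8.39 and 8.52 in low MV against 8.76 and 8.59 in high MV. Its difference of -0.22 missed the threshold, with an adjusted p = 0.147, and it was 0.00 with 75th percentile scaling. The shared type II receptor gene, daf-4, read 10.92 and 10.94 in low MV and 11.29 and 11.12 in high MV on its brightest probe. This difference of -0.28 had an adjusted p = 0.0679 by limma and a 95% interval of -0.54 to -0.01. Unlike sma-6, daf-4 passed the adjusted p with the deposited log2 table (-0.41, 0.0166) and normexp (-0.36, 0.0117). It also passed with the mean of its probes (-0.40, 0.0380). It did not pass with 75th percentile scaling (-0.30, 0.0599) or spike-in scaling (-0.67, 0.161). None of these was called. Leaving out 1 array gave -0.36 to -0.19.

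The probes of daf-4 did not all move the same way. The 4 present probes, annotated to transcript C05D2.1a.1, differed by -0.28, -0.35, -0.36 and -0.60, and the last was called lower, with an adjusted p = 0.0120. The fifth, annotated to C05D2.1d, was not present and was left out of the test. It read 6.22 and 6.45 in low MV and 5.41 and 5.22 in high MV, a difference of 1.03 in the opposite direction. In a fit of all 43541 probes with no filter on dim ones, where 16.6% of probes were called higher, it had an adjusted p = 0.0176. The C05D2.1d probe minus the mean of the C05D2.1a.1 probes was -3.07 and -2.93 on the low MV arrays and -4.45 and -4.40 on the high MV arrays. This quantity differed by 1.42 between the groups, which did not overlap, and with 2 arrays a group the smallest two-sided p of an exact permutation test is 0.333. The contrast was chosen after its values were seen, and the dim probe had intensities of only 33.9 to 87.3.

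The plot of probes shows the daf-4 exception beside the closely grouped sma-9 probes.

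**Figure D2:**
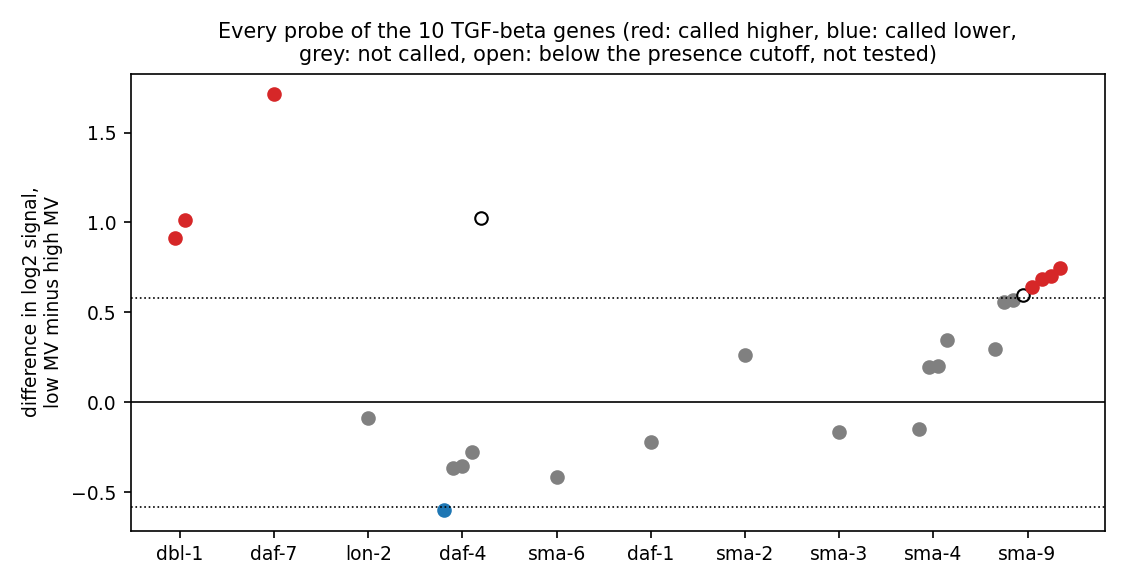
Difference in log2 level, low MV minus high MV (vertical axis), of each of the 25 probes, 1 point per probe, grouped by gene (horizontal axis), with filled red and blue points for probes called higher and lower and open points for untested ones; dotted lines mark 1.5-fold in either direction. All 8 sma-9 probes and both dbl-1 probes lie above 0, and the 5 daf-4 probes run from -0.60 to 1.03.

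The Smad genes of the Sma/Mab branch differed by less than 1.5-fold, with mixed signs. The receptor-regulated Smad gene sma-2 read 9.83 and 9.72 in low MV and 9.37 and 9.66 in high MV. Its difference was 0.26, with a 95% interval of -0.07 to 0.59 and an adjusted p = 0.139. It was 0.12 without high MV replicate 1, 0.40 with an adjusted p = 0.0430 without high MV replicate 2, and 0.02 with spike-in scaling. The other receptor-regulated Smad gene, sma-3, read 7.90 and 7.95 in low MV and 8.08 and 8.10 in high MV. Its groups did not overlap, but the difference was only -0.17, with a 95% interval of -0.40 to 0.06 and an adjusted p = 0.162, and it became 0.08 with 75th percentile scaling.

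The co-Smad gene, sma-4, read 9.96 and 9.84 in low MV and 9.51 and 9.59 in high MV. The difference of 0.35 ± 0.10 (SE, n = 2 per group) passed the adjusted p, at 0.0316 by limma, but not 1.5-fold. It also passed with 75th percentile scaling (0.48, 0.0114), the replicate block (0.35, 0.0388) and a trended robust prior (0.35, 0.0407). It did not pass with the mean of the probes (0.15, 0.265), the deposited log2 table (0.13, 0.341), normexp (0.09, 0.312) or spike-in scaling (0.11, 0.849). Nor did it pass with no filter on dim probes (0.35, 0.0682) or with the filter on spots well above background (0.35, 0.0569). Leaving out 1 array gave 0.29 to 0.41. The 4 probes of sma-4 gave values from -0.15 to 0.35. The brightest probe, annotated to R12B2.1b, gave the upper end, and a probe annotated to another transcript the lower end. No sma-4 probe was called.

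The gene sma-9, for a Schnurri-type zinc-finger protein that works with the Smads in the nucleus, was higher in low MV worms on every probe. Its brightest probe read 9.29 and 9.26 in low MV and 8.81 and 8.37 in high MV. The difference was 0.69 ± 0.16 (SE, n = 2 per group), 1.61-fold, with a 95% interval of 0.27 to 1.1 and an adjusted p = 0.0175 by limma. All 8 probes, including 1 too dim to be tested, had both low MV arrays above both high MV arrays. Their differences ran from 0.30 to 0.75. The 2 probes annotated to T05A10.1b gave 0.69 and 0.75, the single T05A10.1i probe 0.64, and the 5 T05A10.1j probes 0.30 to 0.70. Of the 7 tested, 4 were called higher, beside 20.3% of all probes. The tested T05A10.1j probes were present in low MV worms only and entered the test through that group. The called probe at 0.70 is among them. With no filter on dim probes, the T05A10.1i probe kept its call, with an adjusted p = 0.0215 by limma. The other called probes lost theirs, at 0.0578 and 0.0594 for T05A10.1b and 0.0836 for T05A10.1j. These probes read the same RNA and are not replicates of each other. The gene's call was lost without high MV replicate 2, which had the lowest level, at 0.46. It was also lost with the deposited log2 table, at 0.56, with normexp, at 0.35, with spike-in scaling, at 0.50, and with no filter on dim probes, at an adjusted p = 0.0505. It was not called by the methods' t-test, with an unadjusted p = 0.0910 and an adjusted p = 0.146.

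Over all probes, 7 of the 23 tested were called higher and 1 lower, where 20.3% and 17.9% of all probes were called. Of the 18 probes present in both groups, 5 were called higher and 1 lower. Both low MV arrays were above both high MV arrays for 14 of the 23 probes and below for 7, beside 40.4% and 41.7% of all probes. Probes of 1 gene read the same RNA, and sma-9 alone has 7 of the 23, so these are not counts of independent members. Of the 23, 5 were present in the low MV group only. For genes, the low MV arrays were above in 5 of 10 and below in 4, beside 42.2% and 41.2% of all genes. An adjusted p under 0.05 with no limit on size was reached by 5 of the 10 genes, of which 4 were higher and 1 lower. Among all genes, 30.8% were higher and 29.2% lower by that rule. The median difference over the 10 genes was 0.09, beside 0.01 over all genes tested.

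The size of the differences also depended on how arrays were scaled. Spike-in scaling moved the median of all genes to -0.35 and left 26.8% of calls in the higher direction, against 56.2% with quantile normalization. Under spike-in scaling daf-7 differed by 1.68, with an adjusted p = 0.000165 by limma. The gene dbl-1 differed by 0.79 (0.0962), sma-9 by 0.50 (0.309), sma-6 by -0.58 (0.230) and daf-4 by -0.67 (0.161). Relative to the median of all genes these were 2.03, 1.14, 0.85, -0.24 and -0.33. Taking off that median puts back the assumption that the typical gene does not change, so these values do not test it. The order of the 3 called genes was the same as with quantile normalization, but not with normexp, and the plot of differences by setting shows each value.

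**Figure D3:**
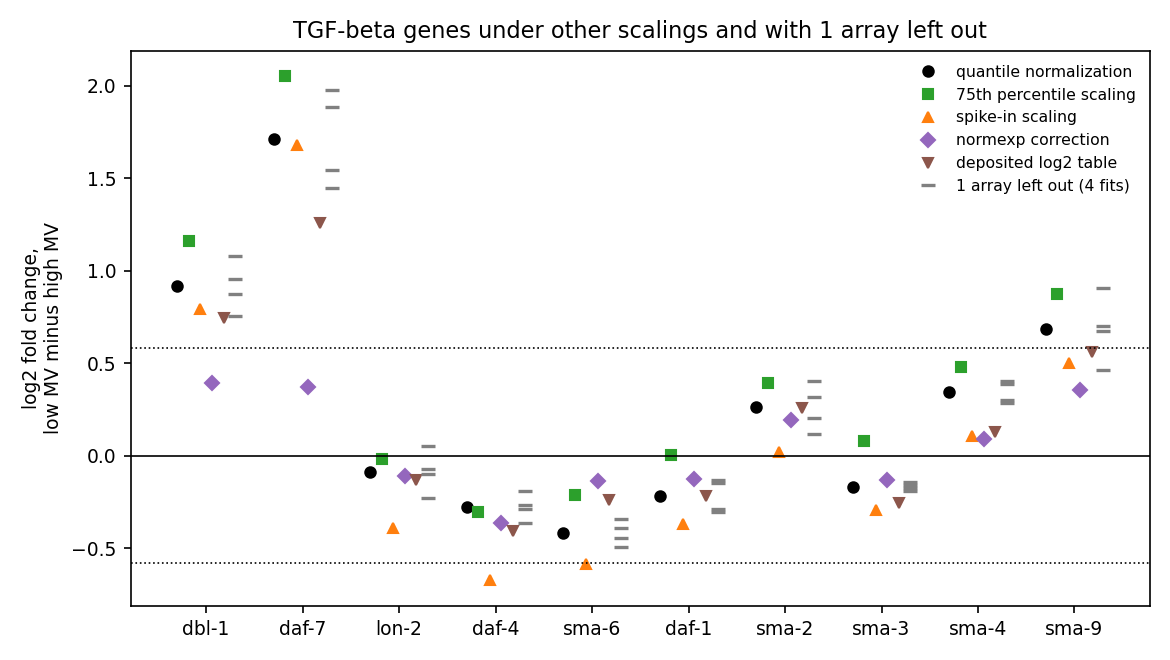
Difference in log2 level, low MV minus high MV (vertical axis), of each of the 10 genes with quantile normalization, under 4 other scalings or corrections, and with each array left out in turn; dotted lines mark 1.5-fold. The values of daf-7 run from 0.37 with normexp to 2.05 with 75th percentile scaling, and those of lon-2, daf-1 and sma-3 reach 0 or cross it.

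Other genes of TGF-beta signalling were described from lists of ligands, Sma/Mab modulators, dauer pathway genes and reported Sma/Mab targets. Of the 41 listed, 34 were tested, 11 were called higher and 7 lower, beside 21.8% and 17% of all genes. Under the alternative scalings, the deposited table and normexp, each of the 18 called genes kept the sign of its difference.

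Of the 3 other ligand genes, unc-129 was called higher. UNC-129 is a ligand of the family that guides motor axons. Its level was 13.03 and 13.08 in low MV and 11.39 and 11.53 in high MV, a difference of 1.59 with an adjusted p = 0.000738. The groups lay far apart relative to their spread. The ligand genes tig-2 and tig-3 differed by -0.03 and 0.11 and were not called.

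Of 10 Sma/Mab modulators tested, 2 were called higher and 0 lower, beside 21.8% and 17% of all genes, with a median difference of 0.35. The higher count was 5 with 75th percentile scaling, 4 without high MV replicate 1, and 1 with spike-in scaling or normexp, where mab-21 was at 0.56 and 0.51. The gene tsp-14 encodes a tetraspanin that promotes Sma/Mab signalling. It read 10.89 and 10.99 in low MV and 9.31 and 9.39 in high MV, a difference of 1.59 with an adjusted p = 0.000734. All 5 of its probes were higher, by 1.12 to 1.59. The gene mab-21, needed for the identity of male tail rays, was higher by 0.81 with an adjusted p = 0.00484. The metalloprotease gene adt-2, the kinase gene kin-29 and mab-31 passed the adjusted p but not 1.5-fold, at 0.56, 0.48 and 0.56, and the 6 mab-31 probes disagreed, from -0.43 to 0.58. The probes of sma-10, a gene that promotes the branch, also disagreed, from -0.97 to 0.16, and it was called lower when the most changed probe stood for each gene. The tetraspanin genes tsp-12 and tsp-21, the netrin receptor gene unc-40, the brightest sma-10 probe and the protease gene sup-17 lay between -0.21 and 0.22 and were not called. The co-receptor gene drag-1 had no present probe, and crm-1 was not matched to a probe by name and is not analysed here.

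Of 11 dauer pathway genes tested, 6 were called higher and 1 lower, beside 21.8% and 17% of all genes, with a median difference of 0.66. Both receptor-regulated Smads of the branch were higher, daf-8 by 0.66 (adjusted p = 0.00827) and daf-14 by 0.71 (adjusted p = 0.00801). The Smad gene daf-3, whose product the DAF-7 signal antagonizes, was higher by 0.84 with an adjusted p = 0.00186, and its 11 probes ran from 0.41 to 0.84. The gene bra-1, for a receptor-associated protein, was higher by 0.71 with an adjusted p = 0.0398.

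The nuclear hormone receptor gene daf-12, downstream of the dauer branch, was higher by 0.76 (adjusted p = 0.0134). Its co-repressor gene din-1 was higher by 1.39 (adjusted p = 0.000926). The called fall was daf-36, for an oxygenase that makes the steroid ligands of DAF-12. It read 7.91 and 8.24 in low MV and 8.98 and 9.07 in high MV, a difference of -0.95 with an adjusted p = 0.00377. The daf-3 partner gene daf-5, bra-2, pdp-1 and the kinase gene egl-4 lay between 0.06 and 0.41 and were not called. The genes daf-11, tax-2, tax-4 and daf-9 had no present probe. With spike-in scaling 0 genes of this list were called higher, 2 with normexp, 2 with the methods' t-test after adjustment and 3 without high MV replicate 2.

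**Figure D4:**
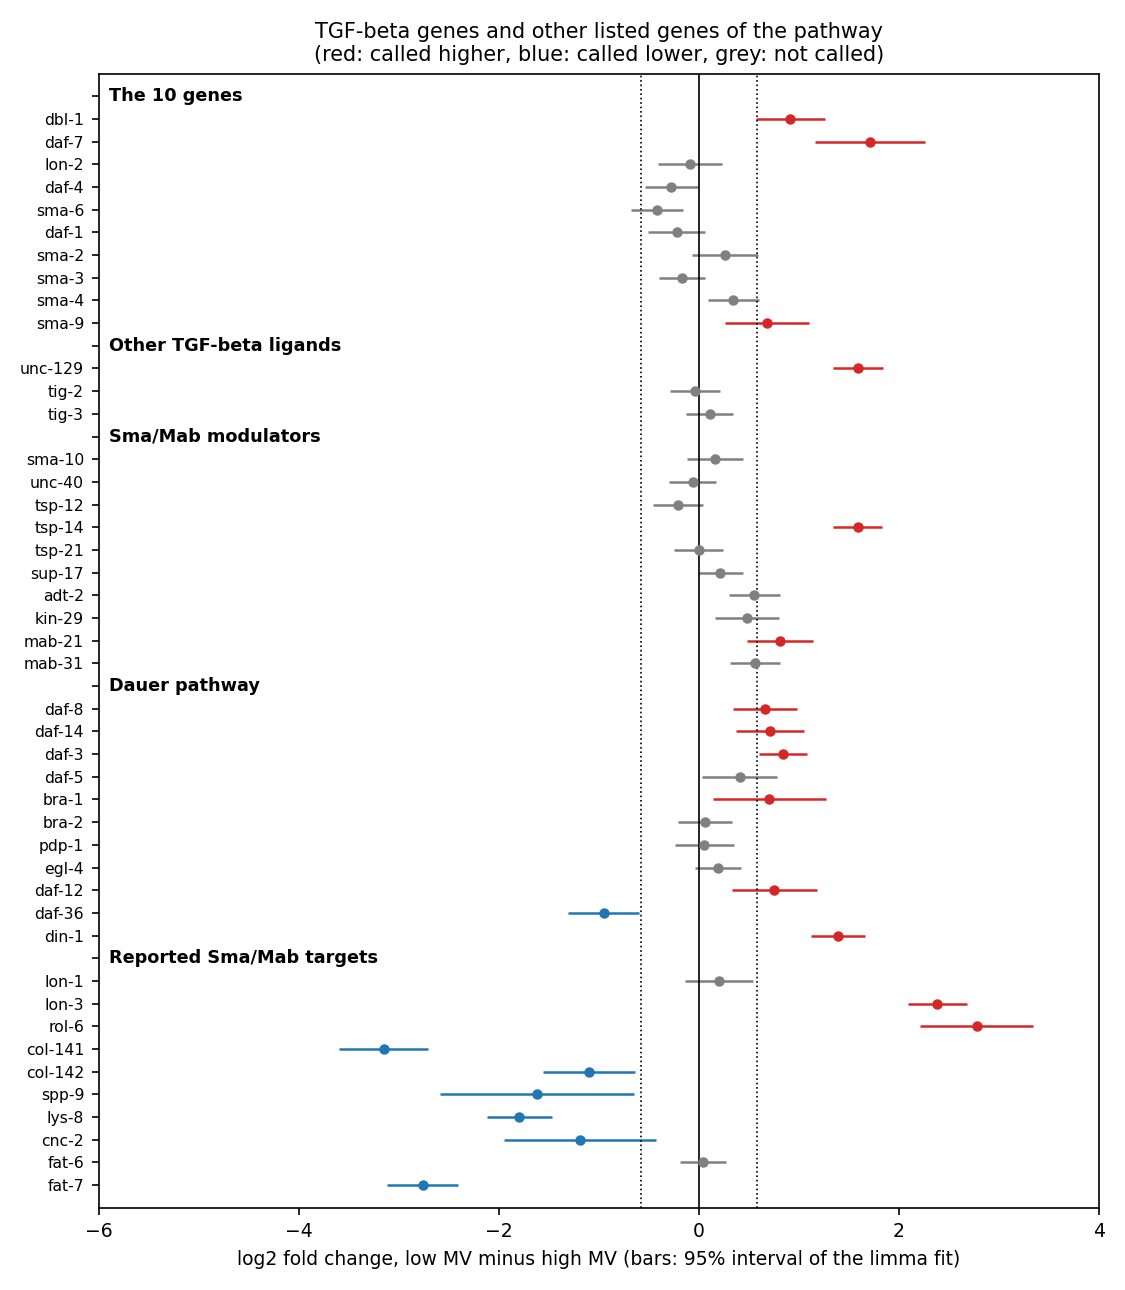
Difference in log2 level, low MV minus high MV (horizontal axis), of the 10 genes and of the tested genes in the 4 other pathway lists; bars are 95% intervals from limma and dotted lines mark 1.5-fold. Of the 11 dauer pathway genes 6 were called higher, and of the 10 reported Sma/Mab targets 2 were called higher and 6 lower.

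Genes reported as targets of the Sma/Mab branch differed in both directions. Of 10 tested, 2 were called higher and 6 lower, beside 21.8% and 17% of all genes, with a median difference of -1.14. The cuticle collagen genes went both ways. The collagen gene lon-3 read 7.35 and 7.16 in low MV and 4.80 and 4.94 in high MV, and rol-6 read 7.87 and 7.25 in low MV and 4.87 and 4.69 in high MV. Both were higher in low MV worms, by 2.38 and 2.78, with their high MV values below the presence cutoff. The collagen gene col-141 read 4.57 and 4.15 in low MV, below the cutoff, and 7.63 and 7.39 in high MV, a difference of -3.15. These 3 genes each entered the test through 1 group only, and with normexp their differences were 0.40, 0.59 and -0.48. Its neighbour in name, col-142, differed by -1.1.

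The other called genes of this list were lower in low MV worms. The lysozyme gene lys-8 read 12.61 and 12.34 in low MV and 14.33 and 14.21 in high MV, a difference of -1.79. The saposin-like gene spp-9 differed by -1.61 and the antimicrobial peptide gene cnc-2 by -1.19, with wide spread within groups. The level of spp-9 was 8.88 and 8.16 in low MV and 10.61 and 9.66 in high MV (adjusted p = 0.0167 by limma). That of cnc-2 was 11.42 and 11.99 in low MV and 12.53 and 13.25 in high MV (adjusted p = 0.0207 by limma). The stearoyl-CoA desaturase gene fat-7 read 6.85 and 7.20 in low MV and 9.76 and 9.81 in high MV, a difference of -2.76, while fat-6, for a desaturase of the same type, differed by 0.04 and was not called. The gene lon-1, which limits body length, differed by 0.20 and was not called, and col-41 had no present probe.

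**Figure D5:**
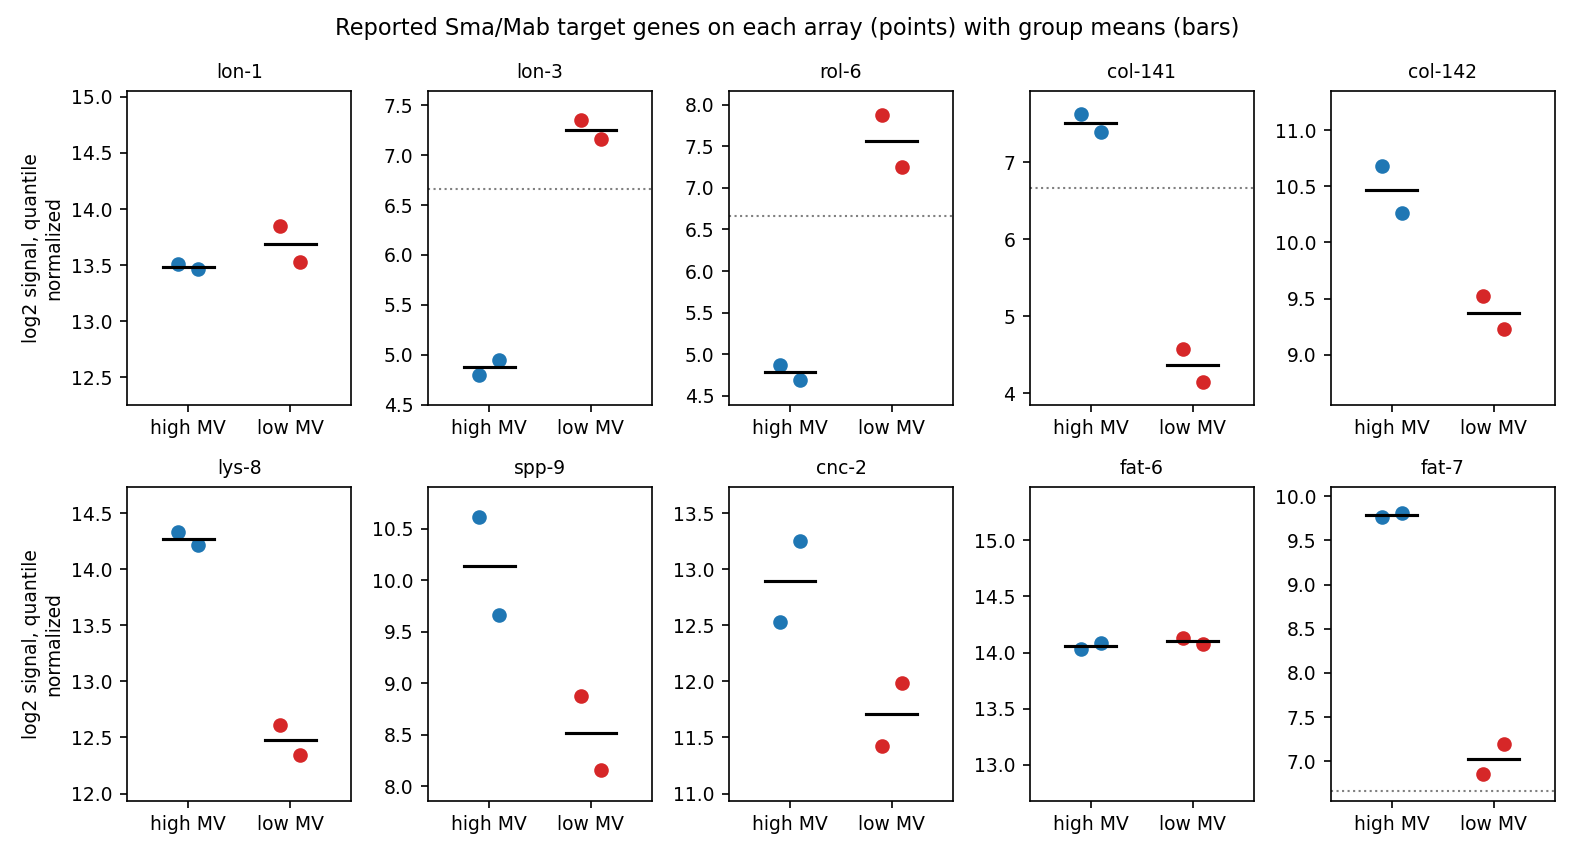
Normalized log2 intensity (vertical axis) of the 10 reported Sma/Mab target genes tested, on the 2 low MV and 2 high MV arrays, 1 point per array with bars for the group means and an axis for each gene; the dotted line, where in range, is the mean presence cutoff. The collagen genes lon-3 and rol-6 lie higher in low MV, and col-141, col-142, spp-9, lys-8, cnc-2 and fat-7 lie lower, while lon-1 and fat-6 differ by 0.20 and 0.04.

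Markers of the cells that make or receive these signals moved between the groups as well. In whole worms, fewer cells of a type and less RNA per cell cannot be told apart. Of 13 pan-neuronal markers tested, 7 were called higher and 0 lower, beside 21.8% and 17% of all genes, with a median of 0.59. The higher count was 4 without high MV replicate 1, 3 with normexp and 1 with spike-in scaling. Their summed normalized intensity was 63719 to 66058 in low MV and 50315 to 51330 in high MV. The brightest gene weighs most in this sum. That gene was snb-1, at 15.16 and 15.34 in low MV and 15.05 and 15.06 in high MV. It was not called (0.19, adjusted p = 0.162 by limma), so the sum does not stand for all the markers. Among markers of ASI, the neurons that make DAF-7, ins-3 was called higher, at 1.05, as 1 of 3 tested (0 with spike-in scaling, 2 without high MV replicate 2), and the summed intensity was 2488 to 2865 in low MV and 1461 to 1642 in high MV. The ASI receptor marker str-3 went the other way. It read 1.45 and 1.48 in low MV, not well above background on either array, and 3.84 and 4.17 in high MV. It had no present probe and is not in that sum. With no filter on dim probes its difference was -2.54, with an adjusted p = 0.00949 by limma. In that fit it was called lower, beside 14.3% of all genes. The ASI marker daf-28 had no present probe.

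The marker counts that follow stand beside 21.8% of all genes called higher and 17% called lower. Of 8 hypodermis markers tested, 5 were called higher and 1 lower, the adult collagen gene col-19, at -3.57, and 3 were called higher with spike-in scaling. Their summed intensity was 20902 to 21007 in low MV and 15981 to 17998 in high MV. Of 9 body wall muscle markers, 1 was called higher and 5 lower, with a median of -0.72. The lower count was 3 without high MV replicate 1 and 2 with normexp, and the higher count 0 without high MV replicate 2. Of 9 pharynx markers only 4 were tested, of which 3 were called higher, and the others had no present probe. Intestine markers had 0 of 9 called higher and 3 lower, and germline markers 0 of 13 higher and 1 lower. The 2 sperm markers tested, msp-3 and gsp-3, differed by -2.26 and -1.19. The groups did not overlap, but neither was called, with an adjusted p = 0.0675 and 0.0723. Both were called lower without high MV replicate 1 and without low MV replicate 1, and 3 of 3 with spike-in scaling. Of 6 early zygotic markers 2 were called higher and 2 lower. The part of these markers in the differences of dbl-1, daf-7, sma-9 and the target genes was not tested.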

How the data were processed

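RNA of 2 low MV and 2 high MV samples was hybridized to single-colour Agilent arrays. The authors deposited, per spot, a background-subtracted intensity from Feature Extraction 11.5.1.1, the scanner's software, with median spot and background intensities and flags. They also deposited a log2 table, which equals the quantile-normalized log2 median spot intensity to within 5e-09.

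The log2 intensities of 43803 non-control spots were quantile normalized. Spots with an outlier flag were left out, spots of a probe were averaged, and presence was set by a 2-component Gaussian mixture per array. Probe names were matched to genes through a RefSeq table of another assembly, for names only, so that 22720 of 28477 names matched, 635 were kept as sequence names and 5122 gave no gene. Probe sequences and coordinates were not used here.

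The tests used limma (version 3.58.1, under R 4.3.3), and p-values were adjusted by Benjamini-Hochberg over all genes or all probes. Tables were made with Python 3.11.15, numpy 2.4.6 and pandas 2.3.3, and figures with matplotlib 3.10.9. In a test on simulated data of this comparison over 12883 genes, limma recovered 72% of 100 genes changed 2-fold and 96% of 100 changed 4-fold, with 6 false calls. The simulation changed only these genes, with independent noise and no slide or scan effect. In the data 21.8% of genes were called higher and 17% lower, so the simulated figures do not give the error rate of the real comparison. The named genes are the 10 pathway genes and every called gene of the other pathway lists, with uncalled ones by value. The genes and lists were chosen with earlier results of these data known.

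Alternatives were 75th percentile scaling, spike-in scaling (8 of 10 spike-in probes), normexp with an offset of 50 on the median spot and background intensities (the means are not used here), the deposited log2 table, other probe filters and probe choices, a trended robust prior, the methods' t-test, a 2-fold threshold, a replicate block and each array left out. The integrative test of the study's methods was not run.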

Additional observations from a re-analysis of the deposited data

How the results depend on the processing

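Of the 10 genes, 3 were called higher and 0 lower. The higher count was 0 with the adjusted methods' t-test and with normexp, 1 with spike-in scaling, 1 with a 2-fold threshold and 2 with the unadjusted methods' t-test, which lost sma-9. With each gene's most changed probe, 1 gene was called lower, daf-4 at -0.60. Of the probes, 7 were called higher, against 0 with the adjusted t-test, 4 with the unadjusted methods' t-test, 0 with normexp, 2 with spike-in scaling and 2 with a 2-fold threshold. Leaving out 1 array gave 4 to 9 probes, with 4 without high MV replicate 2. The 1 probe called lower was lost (0 called) with 75th percentile scaling, both t-tests, normexp, spike-in scaling and 2-fold, and 0 to 1 were called with 1 array left out, with 0 without high MV replicate 1 or low MV replicate 1. Over all genes, 2808 were called higher and 2191 lower. These counts were 801 and 762 with the adjusted t-test, 1517 and 1322 with normexp, and 1284 and 923 at 2-fold. Higher calls alone were 1007 with spike-in scaling and 4251 with the filter on spots well above background, which tested 18588 genes, so that the share was 22.9% against 21.8%. With 75th percentile scaling daf-1 became 0.000753, sma-3 0.0807 and a sma-4 probe 0.0188. With spike-in scaling 2 other sma-4 probes became -0.00410 and -0.0298. The difference of lon-2 ran from -0.228 to 0.0545 with 1 array left out, and each of lon-2, daf-1 and sma-3 has a single probe. With the replicate block, 3 genes were called higher and 0 lower, and 7 probes higher and 1 lower, the same genes and probes. Deviations of same-numbered arrays correlated at -0.04, so no effect shared by same-numbered arrays was seen. The labels do not say whether same-numbered samples were matched. No fit with the slide as a block could be made. The cause of these changes was not tested. With 2 arrays per group, small differences of dim probes are poorly measured.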
